A study of Mus musculus with 18 samples.

Results

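Septins are GTP-binding proteins that join in fixed order into rods, and the rods join into filaments and rings under the cell membrane. The 7 genes described are Sept1, Sept2, Sept6, Sept7, Sept8, Sept9 and Sept11, now also written Septin1 and so on, out of 46078 genes in the count table. They were chosen by their counts in these data: the family was taken up because Sept8 was present in type 1 innate lymphoid cells (ILC1s) and absent from natural killer (NK) cells of control mice. That difference is therefore given as a description, with no test. The table holds 6 more septin genes, Sept3, Sept4, Sept5, Sept10, Sept12 and Sept14.

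RNA was measured in bulk in 18 libraries of 200 sorted cells each, amplified as full-length cDNA with a SMART-seq kit, from C57BL/6 mice 8 weeks old. The sorted populations were ILC1s from the liver and from the spleen and NK cells from the liver. ILC1s are innate lymphocytes that stay in a tissue and secrete interferon-γ, and NK cells are their circulating, cytotoxic relatives. RARa403 mice had the genotype Ncr1-Cre with Rosa26-RARalpha403, and controls had Ncr1-Cre alone, so Cre recombinase was present in both. Ncr1 encodes NKp46, so Cre acts in ILC1s and NK cells alike, and neither population is an unaltered reference for the other in RARa403 mice. RARa403 is a dominant-negative, shortened form of the retinoic acid receptor α, and the series asks whether that signalling is needed to keep ILC1s. The 6 groups of 3 libraries are liver ILC1 RARa403, liver ILC1 control, spleen ILC1 RARa403, spleen ILC1 control, liver NK RARa403 and liver NK control. All cells were gated as negative for CD3 and positive for NK1.1 and NKp46, ILC1s also as positive for CD49a and the interleukin-7 receptor with low CD49b, and NK cells as negative for CD49a and positive for CD49b. The labels name no single mice. Description codes of same-numbered libraries of a genotype share their digits across the sorted populations, but what the digits mark is not said. The main fit did not pair libraries, so p-values measure the spread between these libraries, which may be partly technical.

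Library totals ran from 3452279 to 9038767 counts. In sum the populations carried the markers of their labels. Summed CPM (counts scaled to a library's total) of 8 ILC1 markers was 1585 to 3566 in the ILC1 libraries and 31.5 to 276 in the NK libraries. For 11 NK markers it was 1225 to 4139 in the ILC1 libraries and 4280 to 16930 in the NK libraries. Both lists hold genes of proteins used for gating, so the sort set part of this gap. In RARa403 liver ILC1s the NK markers Klra8 and Eomes had 2 to 2586 and 147 to 749 counts. In control liver ILC1s they had 0 to 6 and 10 to 106. The median log2 fold change of the 11 NK markers, RARa403 over control liver ILC1s, was 1.41, with 0 called. Liver NK RARa403 library 1 stood apart. Its mean Pearson correlation across genes with its group was 0.633, against 0.770 to 0.918 in the other 17 libraries. Rara, the gene of the receptor, had 1764 counts (8.75 log2 CPM) in it, and 4.51 to 5.81 log2 CPM in the other 17. The reason was not tested. Values that this library moves are given with and without it where both were computed. Gt(ROSA)26Sor is the transcript of the locus that carries the insert. It was within the pooled range of all controls, 104 to 1260 counts, in RARa403 library 1 of both ILC1 populations. It was at 0 to 10 counts in the other 7 RARa403 libraries. Those library 1 values were 5.98 log2 CPM in liver and 5.83 in spleen ILC1s. Control library 1 was higher in every population, at 6.39 to 7.25. Control libraries 2 and 3 spanned 4.51 to 6.63, on both sides of them. The cause of the difference among RARa403 libraries was not tested. RARa403 below therefore means libraries labelled so, and results from replicates 2 and 3 alone were computed as well. In bulk samples, fewer cells that express a gene and less RNA per cell cannot be told apart.

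Septins fall into 4 groups by sequence, and each group has a set position in the rods that hold it. The Septin2 group holds Sept1, Sept2, Sept4 and Sept5, the Septin6 group Sept6, Sept8, Sept10, Sept11 and Sept14, the Septin3 group Sept3, Sept9 and Sept12, and Sept7 stands alone. Members of a group can generally take each other's place in the rod, while Sept7 has no substitute. Septin filaments act as scaffolds and as barriers to diffusion in the membrane, bind actin and microtubules, and mark the cleavage furrow of dividing cells. In mouse T cells they are known to stiffen the cell cortex during migration.

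Sept8 (ENSMUSG00000018398, mm10 chromosome 11, 53519257 to 53549565, plus strand, protein coding) is the member whose counts led to the choice of the family. No other annotated gene overlaps it. The nearest annotated genes lie 17.5 kb before it and 15.1 kb after it. RefSeq lists 2 start sites for it, and the 300 bases around each, 250 before and 50 after the start, are shown because the gene had counts in all 12 ILC1 libraries and none in the 6 NK libraries. The window of Sept11, the other of the 7 genes in the Septin6 group with an entry, is shown beside them as a gene of the same group with counts in every library. They are given on the plus strand, 5′ to 3′, with the build GRCm38.p6. Capitals mark a match to the T-box motif GGTGTGA, which the T-box factors of these lineages can bind.
Sept8 first start, chr11:53519486-53519785: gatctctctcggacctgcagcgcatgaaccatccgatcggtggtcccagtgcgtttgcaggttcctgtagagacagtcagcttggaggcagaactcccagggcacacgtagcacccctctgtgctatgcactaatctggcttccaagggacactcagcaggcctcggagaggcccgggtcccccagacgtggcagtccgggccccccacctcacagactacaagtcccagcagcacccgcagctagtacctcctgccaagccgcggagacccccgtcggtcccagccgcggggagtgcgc
Sept8 second start, chr11:53519938-53520237: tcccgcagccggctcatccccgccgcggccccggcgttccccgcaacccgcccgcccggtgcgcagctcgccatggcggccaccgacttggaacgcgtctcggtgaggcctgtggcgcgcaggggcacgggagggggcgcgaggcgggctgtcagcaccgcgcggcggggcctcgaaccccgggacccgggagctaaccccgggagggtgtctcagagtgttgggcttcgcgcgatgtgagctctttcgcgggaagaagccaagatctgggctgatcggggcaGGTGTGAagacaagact
Sept11, chr5:93093166-93093465: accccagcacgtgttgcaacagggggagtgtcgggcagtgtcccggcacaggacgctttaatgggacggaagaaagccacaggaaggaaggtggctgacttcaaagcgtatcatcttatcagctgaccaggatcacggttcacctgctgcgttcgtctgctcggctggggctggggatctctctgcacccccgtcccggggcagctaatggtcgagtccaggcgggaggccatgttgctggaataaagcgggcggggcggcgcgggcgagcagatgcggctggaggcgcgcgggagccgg

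Which start is used in these cells was not measured. The second Sept8 window holds 1 T-box match, found in 3.98% of the 32851 mouse windows of the same length. Neither Sept8 window, nor that of Sept11, holds TGTGGT (Runx, in 16.8% of windows), AGGTCA (the half-site of nuclear receptors, 16.3%), the DR5 repeat of that half-site with 5 bases between (0.00913%, 3 windows) or CCGGAAGT (Ets, 3.89%). All motifs were searched on both strands, and no match says only that these letters are not in the window. Of the 7 septin genes, 5 had an entry, with 11 windows, and Sept1 and Sept6 had none. Of the 11 windows, 3 held the half-site, in Sept2 and Sept9, and 1 held the T-box motif. The Sept8 windows hold 18 and 38 CpG pairs and that of Sept11 25, against a median of 7 over all windows.

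Sept8 counts in liver ILC1s were 184, 499 and 265 in RARa403 libraries 1, 2 and 3, and 294, 154 and 193 in control libraries. In spleen ILC1s they were 181, 192 and 192 in RARa403 libraries and 267, 170 and 193 in controls. All 3 liver NK RARa403 libraries and all 3 liver NK control libraries had 0. Every ILC1 library thus stood above every NK library, in both genotypes and both organs. For separate comparisons of 3 ILC1 with 3 NK libraries, a laxer condition, the shares of all tested genes higher without overlap follow. They were 7.58% for liver and 6.97% for spleen ILC1s in RARa403 mice, and 8.71% and 8.99% in controls. The share for all groups together was not computed. On a log2 CPM scale with a prior count of 2, liver ILC1s averaged 5.44 ± 0.71 in RARa403 and 5.40 ± 0.07 in control cells, and spleen ILC1s 4.82 ± 0.17 in RARa403 and 4.89 ± 0.30 in control cells (SD, n = 3 each). Sept8 is a little-studied Septin6-group subunit, linked in rat neurons to the machinery of vesicle fusion.

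**Figure D1:**
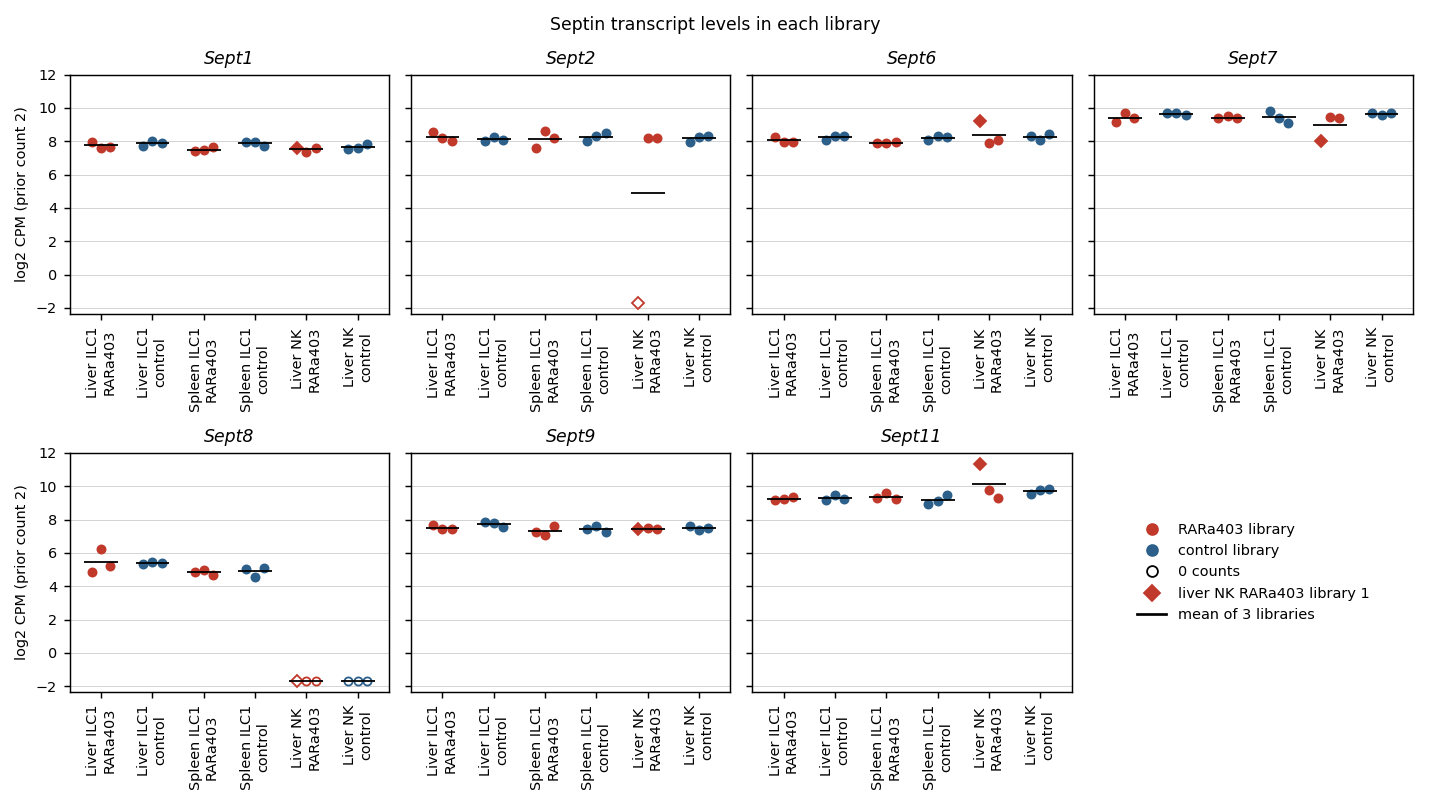
Log2 CPM (vertical axis, prior count 2) of the 7 septin genes in each of the 18 libraries, by group, RARa403 in red and control in blue, with the mean of 3 libraries as a bar, 0 counts as open symbols and liver NK RARa403 library 1 as a diamond. Sept8 lies between 4.55 and 6.23 in all 12 ILC1 libraries and at 0 counts in all 6 NK libraries, while the other 6 genes lie between 7.10 and 9.86 in the 17 libraries other than the diamond.

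In the RARa403 mice Sept8 averaged 47.9 ± 23.5 CPM in liver ILC1s (SD, n = 3), against 0 of 20943878 counts in liver NK cells. Taking 3 counts per library as the floor, a mean of 0.447 CPM, it was at least 107-fold higher in ILC1s. Spleen ILC1s of RARa403 mice, at 29.1 ± 3.07 CPM, were at least 65.1-fold above the same NK libraries. Both comparisons share the 3 NK libraries, and organ and cell type differ together in the spleen one. These values are a description too, and no p is given for Sept8 in them: the rule speaks of ILC1s without a genotype, and the gene passed the filter on low counts only through the ILC1 groups. With edgeR's quasi-likelihood test and a Benjamini-Hochberg adjusted p below 0.05 over 14714 tested genes, the liver comparison called 0.401% of all genes (0.347% higher, 51 genes, and 8 genes lower), and the spleen one 0.238% (0.231% higher, 34 genes, and 1 gene lower). The 1 of 7 septin genes called in each, higher, was Sept8, which the choice of the family fixes and from which nothing is read.

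In controls, likewise without a test, Sept8 averaged 42.7 ± 1.86 CPM in liver ILC1s and 30.6 ± 5.96 CPM in spleen ILC1s, against 0 of 21145521 counts in liver NK cells. These are at least 96.6-fold and 69.4-fold higher, in comparisons that called 0.605% and 0.313% of all genes. Across the table, 304 tested genes had 0 counts in all 6 NK libraries, and 5 of them had at least 3 counts in every one of the 12 ILC1 libraries. Sept8 had at least 154 counts in each ILC1 library. The other 4 were Gm31887, with at least 12, the lactate dehydrogenase gene Ldhb, with at least 5, and the T cell receptor γ segments Tcrg-V4 and Tcrg-V5, each with at least 4. These genes were found after the values were seen.

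Summed markers of other cells were compared between ILC1s and NK cells. Over all ILC1 libraries together only the T cell sums lay apart, higher in every one, and the other ranges overlapped. In single groups other sums were also above every NK library. The B cell sum was so in liver ILC1s, at 549 to 752 CPM in RARa403 and 512.5 to 799 in control cells, and in RARa403 spleen ILC1s. So were the platelet sum in control ILC1s of both organs, the hepatocyte sum in control liver ILC1s and the macrophage sum in RARa403 spleen ILC1s. The 9 T cell markers summed to 413 to 683 CPM in RARa403 liver ILC1s, 184 to 521 in control liver ILC1s, 299 to 383 in RARa403 spleen ILC1s and 325 to 558 in control spleen ILC1s. They summed to 9.91 to 39.2 CPM in RARa403 and 11.1 to 27.6 in control NK cells. Cd3g, a chain of the T cell receptor complex, had 1139 to 2763 counts in RARa403 and 814 to 1062 in control liver ILC1s, against 0 to 64 in RARa403 and 0 to 125 in control NK cells. In RARa403 liver ILC1s Cd3d had 41 to 527 counts, Cd3e 31 to 769 and Trac 85 to 643, and Cd8a and Cd8b1, the chains of the cytotoxic T cell coreceptor, were at 0 in all 3 libraries. The part of T cell transcripts in the Sept8 difference was not tested. The 7 B cell markers summed to 353 to 5389 CPM in ILC1s and 42.6 to 369 in NK cells, mostly through the immunoglobulin gene Ighm and Cd74. In RARa403 liver ILC1s Ighm had 2866 to 4347 counts, Cd74 145 to 712 and Cd79b, a chain of the B cell receptor, 39 to 171, and Ms4a1 and Pax5 were at 0 in all 3 libraries. Of the 9 macrophage markers, 1 to 8 were at 0 in an ILC1 library, with a sum of 0.220 to 195 CPM in ILC1s and 0 to 10.5 CPM in NK cells. Platelet markers (7) summed to 32.4 to 139 CPM in ILC1s and 29.0 to 39.3 CPM in NK cells, and of them Itgb3, an integrin that lymphocytes also make, was the highest in ILC1s. The ranges in ILC1s and NK cells were 0 to 2187 and 0 to 29.4 CPM for 6 erythroid markers, 5.21 to 142 and 1.25 to 10.6 for 8 hepatocyte markers, 44.9 to 318 and 15.4 to 99.5 for 7 endothelial markers, and 0 to 8.45 and 0 to 1.67 for 6 neutrophil markers. The part of these cells was not tested.

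Genes with a pattern like that of Sept8 were ranked by Pearson correlation of log2 CPM over the 18 libraries among 9433 genes that reached 3 log2 CPM in a group. The 5 highest were Trgj4 (r = 0.98), a T cell receptor γ segment, Bmp7 (0.98), a secreted growth factor of the bone morphogenetic family, Tcrg-V1 (0.97), another γ segment, Cxcr6 (0.97), a chemokine receptor and ILC1 marker, and Adgrg3 (0.96), an adhesion G protein-coupled receptor. Over the 17 libraries without liver NK RARa403 library 1 their values were 0.98, 0.97, 0.97, 0.96 and 0.96, at ranks 3, 4, 5, 11 and 12, so the 5 highest are not the same genes without it, and the median over all candidates was 0.09 with 18 libraries. The points share their libraries, and a gene near 0 in NK cells and present in ILC1s gets a high value from that contrast alone, which the choice of Sept8 used. Their counts reached 3, 5, 11, 88 and 8 at most in an NK library, where Sept8 had 0. The 88 Cxcr6 counts were in liver NK RARa403 library 3.

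Of the genes within 100 kb of Sept8, 6 passed the filter and were looked at, and none of these was at 0 in all NK libraries and present in all ILC1 libraries. They were Aff4, a transcription elongation factor, Uqcrq, a subunit of the respiratory chain, the growth factor Gdf9, the kinesin motor Kif3a, the cytokine Il4 and the DNA repair gene Rad50. None was called in RARa403 liver ILC1s against NK cells. Kif3a, 17.8 kb after Sept8, had 100, 240 and 232 counts in RARa403 liver ILC1s and 0, 21 and 36 in RARa403 liver NK cells (log2 fold change 3.31, adjusted p = 0.243), with no overlap of these libraries. In controls it had 67, 92 and 171 counts in liver ILC1s and 25, 103 and 44 in liver NK cells, which overlapped. Il4 had at most 21 counts in any library. Aff4, Uqcrq and Rad50 averaged 5.93, 5.26 and 6.56 log2 CPM in RARa403 liver ILC1s, and 6.18, 5.03 and 5.16 in RARa403 liver NK cells. Liver NK RARa403 library 1 moved 2 of these NK averages. Aff4 was 7.325 log2 CPM there and 5.28 and 5.92 in libraries 2 and 3, and Rad50 was 3.11 there and 6.30 and 6.07. The Kif3a fold also includes that library, at 0 counts.

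**Figure D2:**
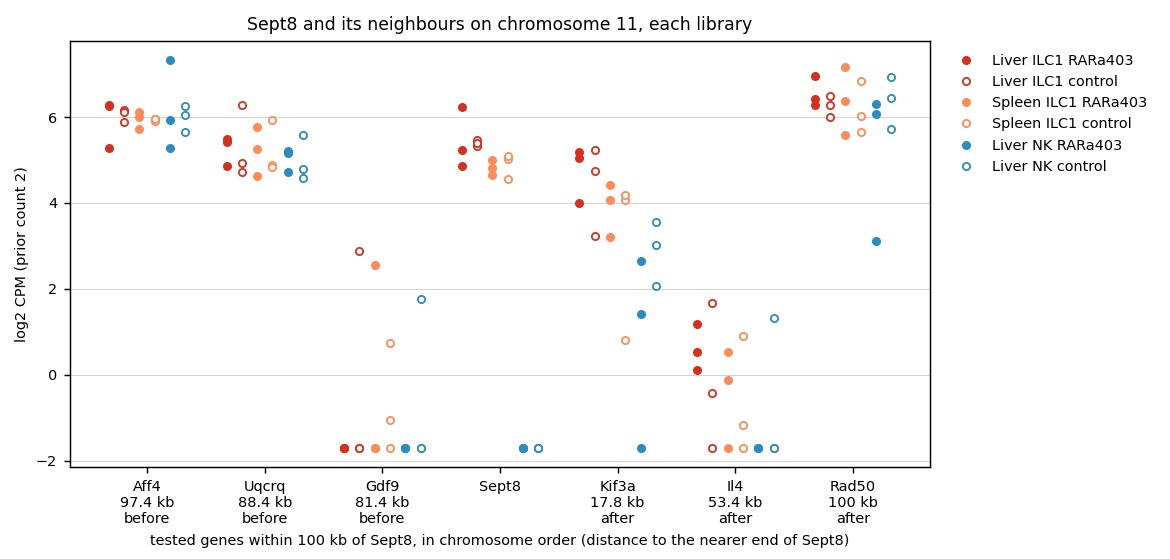
Log2 CPM (vertical axis, prior count 2) of Sept8 and the 6 tested genes within 100 kb of it in every library, in chromosome order with distances in kb, filled symbols for RARa403 and open ones for control, ILC1s in red and orange and NK cells in blue. Sept8 has every NK library at 0 counts and every ILC1 library above 4.55, while Aff4, Uqcrq and Rad50 overlap between cell types and Gdf9 and Il4 are near 0 in most libraries.

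Sept11 (ENSMUSG00000058013, chromosome 5, 93093437 to 93176447) and Sept6 (ENSMUSG00000050379, chromosome X, 36911326 to 36991794) are the other Septin6-group members chosen. Sept6 sits beside Sept2 and Sept7 in the best-known septin rod, and Sept11 can stand in its place. Sept11 had log2 CPM of 9.17, 9.24 and 9.36 in RARa403 liver ILC1s and 11.35, 9.79 and 9.29 in RARa403 liver NK cells. The 11.35 is liver NK RARa403 library 1, and the groups overlap. The log2 fold change of -1.16 (SE 0.38) was not past the threshold (adjusted p = 0.225), and without that library it was -0.29 (95% interval -0.71 to 0.13). Without liver NK RARa403 library 3 instead, it was -1.51 with an adjusted p of 0.0370, so the call turned on which NK library was left out. In spleen ILC1s against the same NK cells it was -1.06 (SE 0.38, adjusted p = 0.252), -0.18 without library 1, and -1.41 (adjusted p = 0.0434) without library 3. In controls, given without a test since the choice used that contrast, Sept11 had log2 CPM of 9.17, 9.50 and 9.22 in liver ILC1s, 8.94, 9.14 and 9.45 in spleen ILC1s, and 9.52, 9.80 and 9.86 in liver NK cells. Both ILC1 groups lay below the NK group without overlap, as did 8.20% and 6.89% of all tested genes.

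Sept6 lay between 7.88 and 8.42 log2 CPM in the 17 libraries other than liver NK RARa403 library 1, where it was 9.19. Its log2 fold change in RARa403 liver ILC1s over NK cells was -0.45 (SE 0.29, adjusted p = 0.559), and 0.08 without that library. Its reads and those of Gm15008, an antisense gene with at most 18 counts, cannot be told apart if strand was not used.

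Sept1 (ENSMUSG00000000486, chromosome 7, 127214447 to 127233130) and Sept2 (ENSMUSG00000026276, chromosome 1, 93478964 to 93510260) are the Septin2-group members. Sept1 is known from lymphoid cells and Sept2 is made by most cell types. Sept1 ranged over 7.37 to 8.01 log2 CPM in all 18 libraries. It was 0.23 higher on the log2 scale in RARa403 liver ILC1s than in NK cells (SE 0.21, adjusted p = 0.737), within the spread. Zfp553, which overlaps it on the opposite strand, had 1 to 606 counts. Reads from the overlap cannot be told apart if strand was not used. Sept2 ranged over 7.58 to 8.62 log2 CPM in 17 libraries and had 0 counts in liver NK RARa403 library 1, where the other 2 libraries of the group had 2675 and 1759. With that library the standard error of its log2 fold change in liver ILC1s, RARa403 over control, was 0.99, and without it 0.23.

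Sept7 (ENSMUSG00000001833, chromosome 9, 25252439 to 25308571), the subunit without a substitute, ranged over 9.10 to 9.82 log2 CPM in 17 libraries and was 7.98 in liver NK RARa403 library 1. Sept9 (ENSMUSG00000059248, chromosome 11, 117199661 to 117362325), the Septin3-group member, binds microtubules and bundles actin filaments. Gm16045, an antisense gene that overlaps it, had at most 43 counts, with the same limit on strand. Sept9 ranged over 7.10 to 7.83 log2 CPM in all 18 libraries. Their log2 fold changes in RARa403 liver ILC1s over NK cells were 0.34 (SE 0.31) for Sept7 and 0.06 (SE 0.22) for Sept9, with adjusted p-values of 0.731 and 0.954, and that of Sept7 was 0.01 (SE 0.19) without library 1. Over the 2 comparisons of RARa403 ILC1s with NK cells, the median log2 fold change of the 7 genes was 0.23 in liver and -0.03 in spleen, beside 0.07 and 0.12 over all tested genes. Without library 1 it was 0.08 in liver and 0.01 in spleen, beside 0.04 and 0.10 over all genes. These medians count Sept8, whose high value the choice of the family fixed, so nothing is read from their size or sign.

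Levels between genes were compared per length, as TPM, transcript levels scaled to the library's sum, from counts divided by summed exon length. In RARa403 liver ILC1s Sept1 was highest at 246 ± 35.6 TPM, followed by Sept11 at 204 ± 15.1 and Sept7 at 186 ± 30.2, neighbours that overlapped in their libraries. The order at the top depends on the length used: over 17 libraries the median share of septin levels was 24.5% for Sept1 and 20.1% for Sept7 by exon length, and 22.4% and 25.4% by the longest transcript. Sept2 followed at 123 ± 26.6, then Sept6 at 85.1 ± 12.2 and Sept9 at 75.6 ± 8.90, which overlapped. Sept8 was lowest at 24.1 ± 11.99 TPM, below every library of Sept9. In control liver ILC1s Sept1, Sept7 and Sept11 again led, at 254 ± 40.8, 207 ± 10.9 and 199 ± 33.6 TPM, and Sept8 was lowest at 20.6 ± 2.18. Spleen ILC1s had Sept11 (216 ± 37.1), Sept1 (203 ± 25.5) and Sept7 (183 ± 16.1) highest in RARa403 cells and Sept1 (261 ± 24.2), Sept11 (191 ± 44.0) and Sept7 (186 ± 36.5) in control cells, with Sept8 at 14.3 ± 1.91 in RARa403 and 15.03 ± 2.85 in control cells. Liver NK control cells had Sept11 highest at 274 ± 40.5, then Sept1 at 223 ± 29.1 and Sept7 at 210 ± 6.80, with overlap between neighbours (SD, n = 3 throughout).

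The 7 genes held 95 to 99.2% of the TPM of all 13 septin genes in the 17 libraries other than liver NK RARa403 library 1. Within the Septin6 group, Sept8 made up 7.58 ± 3.81% in RARa403 and 6.61 ± 0.40% in control liver ILC1s, 4.65 ± 0.20% in RARa403 and 5.10 ± 1.12% in control spleen ILC1s, and 0 in NK cells. The highest Sept8 share was 11.9%, in liver ILC1 RARa403 library 2. Sept11 held 64.0 ± 4.35% of its group in RARa403 and 63.5 ± 1.66% in control liver ILC1s, and 73.5 ± 3.56% in control NK cells. The Septin6 group as a whole held 32.8 ± 1.40% of septin TPM in RARa403 and 31.6 ± 1.63% in control liver ILC1s, and 36.0 ± 1.63% in control NK cells. In liver NK RARa403 library 1 it held 74.5%, with Sept7 at 4.84% and Sept2 at 0. Among the 6 other septin genes only Sept4 was above a few counts in most libraries, with 52 to 322 counts in 17 libraries and 3 in liver NK RARa403 library 1. Sept5 had 0 to 15 counts in liver ILC1s, 0 to 30 in spleen ILC1s and 0, 38 and 26 in RARa403 and 20, 20 and 36 in control liver NK cells. Sept10 had at most 56 counts, Sept12 at most 42, and Sept3 and Sept14 at most 14 and 8.

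**Figure D3:**
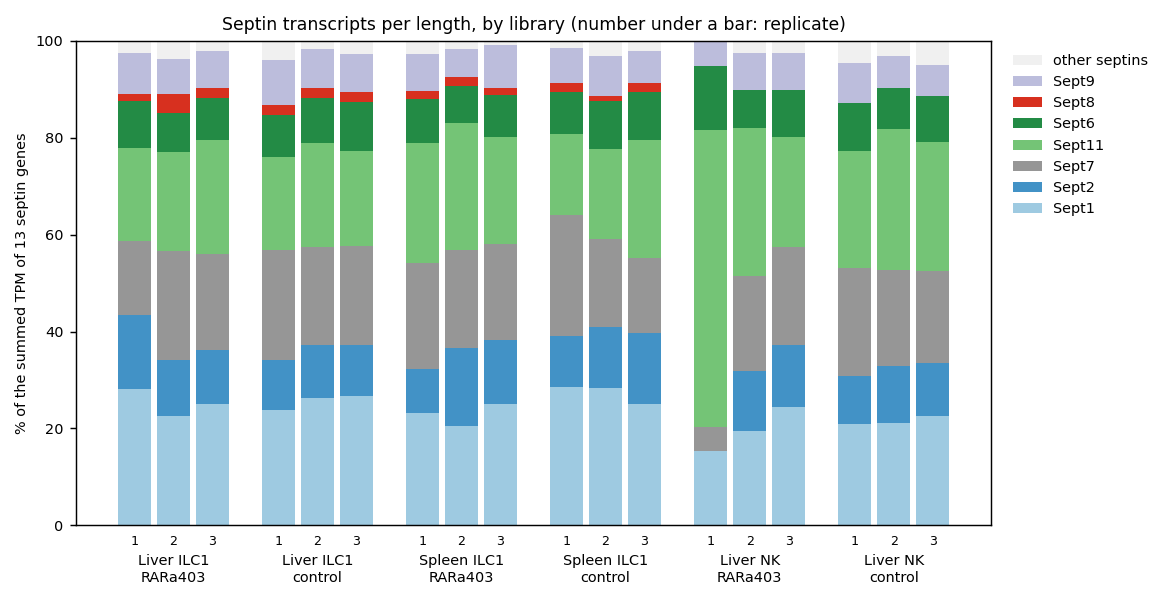
Share of each septin gene in the summed TPM of 13 septin genes (vertical axis, %), 1 bar per library, with groups along the horizontal axis, genes of the Septin2 group in blue, Sept7 in grey, the Septin6 group in greens and red, and Sept9 in violet. Sept8, in red, is a band of 1.19 to 3.93% in the ILC1 libraries and missing from the NK libraries, and liver NK RARa403 library 1 differs from all other bars.

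RARa403 against control asked whether blocking the receptor altered septin transcripts. No septin gene was called in ILC1s of liver or spleen or in NK cells (0 of 7 each, edgeR), in comparisons that called 0.00% of 14714 genes each. At an unadjusted p below 0.05 there were 0 of 21 septin tests, and 432, 1418 and 425 genes of the whole table in the 3 populations, or 2.94%, 9.64% and 2.89%. DESeq2 called 33, 154 and 20 genes and limma-voom 0 in each, with no septin gene among them. Sept8 was 0.16 higher on the log2 scale in RARa403 than in control liver ILC1s (95% interval -0.86 to 1.18) and -0.08 in spleen ILC1s (-1.11 to 0.94). The spread in RARa403 liver ILC1s, 30.2, 74.6 and 38.9 CPM, spanned that in controls, at 40.9, 44.6 and 42.4 CPM. With 3 libraries a group, these intervals hold changes in both directions up to their bounds. From replicates 2 and 3 alone the log2 fold change of Sept8 was 0.38 in liver and -0.03 in spleen ILC1s, both with an adjusted p of 1. In liver NK cells both genotypes were at 0 counts, so there is no fold. The median log2 fold change of the 7 genes was -0.12 in liver ILC1s, -0.06 in NK cells and -0.09 in spleen ILC1s, beside 0.00 over all tested genes in each population. In NK cells it was -0.18 without RARa403 library 1. Both NK medians count Sept8, which has no fold there, as 0.

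In spleen ILC1s the libraries of 2 septin genes, Sept1 and Sept6, did not overlap. Sept1 had log2 CPM of 7.41, 7.45 and 7.63 in RARa403 cells and 7.94, 7.97 and 7.72 in control cells, without overlap. The log2 fold change was -0.38 (95% interval -0.83 to 0.07, unadjusted p = 0.0911, adjusted p = 1, edgeR). Without liver NK RARa403 library 1 in the shared fit it was again -0.38, with an interval of -0.74 to -0.02 and an adjusted p of 0.887. Sept6 in spleen ILC1s, at 7.88, 7.88 and 7.95 log2 CPM in RARa403 and 8.05, 8.29 and 8.24 in control cells, had a like gap (log2 fold change -0.29, adjusted p = 1). From replicates 2 and 3 alone Sept1 was -0.31 and Sept6 -0.36 in spleen ILC1s, and Sept6 was -0.38 in liver ILC1s, each with an adjusted p of 1. These were 2 of 7 septin genes lower without overlap, where 4.87% of all tested genes were. In liver ILC1s the log2 fold changes of the 2 genes were -0.12 and -0.19, and 0 of 7 septin genes were without overlap in either direction, where 9.51% of all genes were. The RARa403 effect in spleen minus that in liver ILC1s was -0.26 for Sept1 (interval -0.89 to 0.37) and -0.10 for Sept6 (-0.96 to 0.75), and 0 of 7 septin genes and 0.00% of all genes were called in that interaction (0 and 397 at an unadjusted p below 0.05, and 18 genes with no septin by DESeq2).

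In liver NK cells Sept7 was the only one of the 7 genes whose libraries did not overlap. It had 7.98, 9.45 and 9.42 log2 CPM in RARa403 and 9.72, 9.55 and 9.68 in control cells, lower in RARa403 cells as were 4.72% of all genes (log2 fold change -0.56, interval -1.21 to 0.09, adjusted p = 0.575). Without library 1 it was -0.23 (-0.63 to 0.17). Sept11 was 0.69 (-0.10 to 1.49) with that library and -0.18 (-0.61 to 0.24) without it, and Sept6 0.23 and -0.30, so the direction of both turned on 1 library. Sept4, no member of the set, had 3, 161 and 126 counts in RARa403 and 309, 298 and 310 in control NK cells, a log2 fold change of -1.77 (SE 0.79, adjusted p = 0.501), and -1.23 (SE 0.56, adjusted p = 1) without library 1. Its libraries did not overlap either. The RARa403 effect in liver ILC1s minus that in NK cells was called for 0 of 7 septin genes and 0.00% of all genes. At an unadjusted p below 0.05 it held 0 septin genes and 913 of all genes, and DESeq2 called 43 genes, no septin among them. It was -0.74 for Sept11 (interval -1.86 to 0.39) and 0.15 without library 1, and for Sept8 it cannot be given, since NK cells were at 0.

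**Figure D4:**
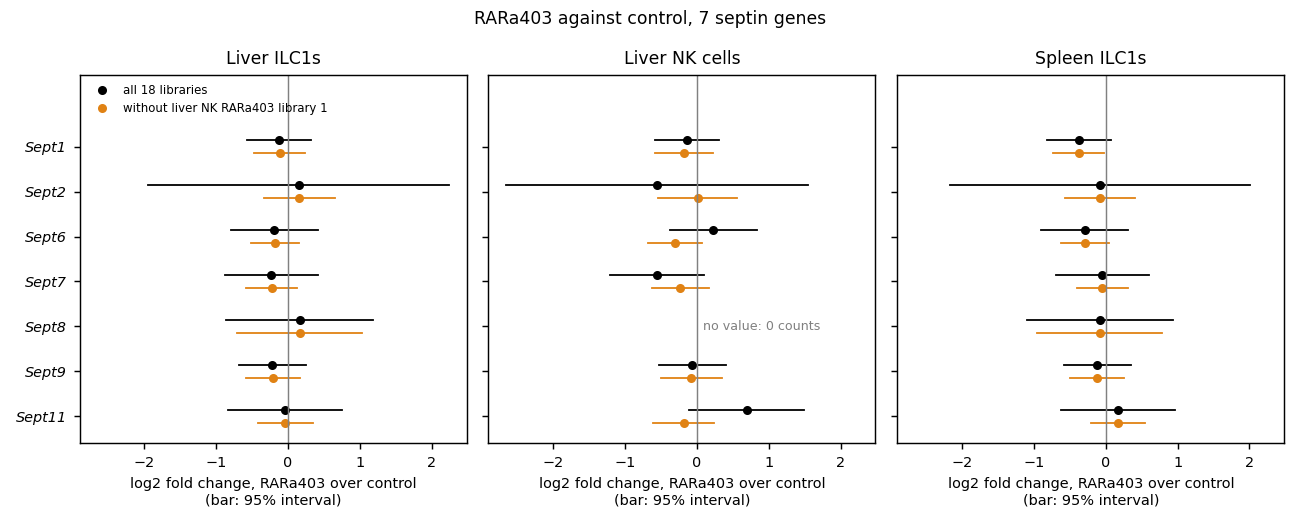
Log2 fold change of RARa403 over control (horizontal axis, point) with its 95% interval (bar) for the 7 septin genes in the 3 populations, from all 18 libraries (black) and without liver NK RARa403 library 1 (orange). Every black interval includes 0, the orange one of Sept1 in spleen ILC1s ends at -0.02, and the bars of Sept2 shorten most without that library.

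Spleen ILC1s were compared with liver ILC1s within each genotype. Sept8 was lower in control spleen ILC1s, at 5.03, 4.55 and 5.10 log2 CPM, against 5.34, 5.47 and 5.40 in control liver ILC1s, without overlap, as were 4.15% of all tested genes. The log2 fold change of -0.49 (95% interval -1.52 to 0.53) was not past the threshold (adjusted p = 1, edgeR). In RARa403 mice it was -0.74 (-1.76 to 0.29, adjusted p = 1), with 4.82, 4.99 and 4.66 log2 CPM in spleen and 4.86, 6.23 and 5.24 in liver ILC1s, which overlapped, and 0 of 7 septin genes were without overlap where 8.96% of all genes were. No septin gene was called in either comparison (0 of 7, with 0.00% of all genes, with 0 septin genes, and 468 of all genes in controls and 419 in RARa403 mice, at an unadjusted p below 0.05). DESeq2 called 26 and 30 genes, no septin among them. Sept9 was -0.29 (-0.75 to 0.18) in controls, and the other 5 genes lay between -0.19 and 0.15. The difference in RARa403 effect between the organs was -0.25 for Sept8 (-1.69 to 1.20).

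Genes that work with septins were read from lists on cortical actin and myosin (23 genes, all tested), microtubules (14, all tested) and cytokinesis (13, all tested). In RARa403 liver ILC1s against NK cells none of them was called in either direction by edgeR, where 0.401% of all genes were, and 4, 2 and 5 of them were at an unadjusted p below 0.05, where 12.3% of all genes were. Without liver NK RARa403 library 1 these counts were 3, 6 and 2, where 6.90% of all genes were. Of the 2 genes with the smallest p in each list, all but the tubulin gene Tubb6 had lower values in ILC1s. Flna, the actin crosslinker filamin A, had a log2 fold change of -2.86 (SE 0.76, adjusted p = 0.172), and -0.52 (SE 0.35) without library 1. Dock8, an exchange factor for CDC42, was -2.01 (SE 0.67, adjusted p = 0.238) with that library and 0.17 (SE 0.24) without it. Both values thus turned on 1 library. Stmn1, which destabilises microtubules, was -2.08 (SE 0.57, adjusted p = 0.183) and -2.22 (SE 0.58, adjusted p = 0.158) without library 1, and Tubb6 2.15 (adjusted p = 0.400) and 1.58. Incenp and Prc1, of the dividing midzone, were -1.69 (adjusted p = 0.224) and -2.74 (adjusted p = 0.276), and -0.99 and -0.72 without it. The median log2 fold changes of the 3 lists were -0.11, -0.14 and -2.47, beside 0.07 over all tested genes, and -0.24, -0.30 and -1.75, beside 0.04, without library 1.

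In RARa403 against control liver ILC1s the same lists had 0 genes called by edgeR in each direction, where 0.00% of all genes were called, and 1, 1 and 1 at an unadjusted p below 0.05, where 2.94% of all genes were. Without liver NK RARa403 library 1 in the shared fit these counts were 3, 1 and 2, where 4.70% of all genes were. The smallest p-values belonged to Vim (log2 fold change 0.89, SE 0.33), the intermediate filament vimentin, and Flna (1.03, SE 0.72) for actin and myosin. Stmn1 (-1.62, SE 0.57), Tuba1b (-0.67, SE 0.41), Cdca8 (-2.67, SE 1.24) and Cep55 (-3.47, SE 1.85) followed for microtubules and cytokinesis, all with an adjusted p of 1. The cytokinesis genes summed to 124 to 239 CPM in RARa403 and 283 to 651 CPM in control liver ILC1s. In spleen ILC1s they summed to 188 to 847 CPM in RARa403 and 157 to 187 CPM in control cells, and the septin genes summed to 2122 to 2528 CPM in RARa403 and 2384 to 2423 CPM in control cells.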

How the data were processed

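RNA-seq counts of 18 libraries were analysed. The deposited table holds whole-number counts per gene, with no normalization. Per the submitters' processing notes, the authors used fastp 0.23.0, HISAT2 2.1.0 and featureCounts of Subread 1.6.5 with the genome mm10. For the annotation release, strand setting and multi-mapping reads: not given in the sources used here. Of 46078 genes, 45229 were matched to GENCODE vM21 of the same build for symbol, position and exon length, and 0 columns lacked a sample.

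Genes were filtered with edgeR's filterByExpr (minimum count 10), which kept 14714, scaled by TMM and fitted with edgeR 4.0.16 in R 4.3.3, with a mean for each of 6 groups over all 18 libraries (common biological coefficient of variation 0.862). P-values were adjusted by Benjamini-Hochberg over all tested genes of a comparison, with a threshold of 0.05. Standard errors were derived by dividing the log2 fold change by the root of F, and 95% intervals from them. Depth per library was 3452279 to 9038767 counts, and 3 counts came to 0.332 to 0.869 CPM. Bounds from 0 counts cover counting error only. Replicates differed by more than sampling noise, so no library was merged. The fit was tested on simulated counts.

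Alternatives were DESeq2 1.42.0, RLE scaling, no filter, the replicate number as a block, also within genotype, a fit of just the groups compared, the description number as a term, limma-voom (limma 3.58.1), a log2 fold threshold of 1, replicates 2 and 3 only, and each library left out. The labels do not say what a replicate number marks, and each of the 7 comparisons checked had a pair with a correlation of deviations under 0.1.

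The members and lists were chosen with earlier results of these data known. All members are named, and of each list up to 2 uncalled genes with the smallest p in 2 comparisons. The neighbour and likeness rules are stated with their results. Genes found after their values were seen are said to be so. Promoter windows are RefSeq's, build GRCm38.p6. No protein sequence was used here. A further gene list and a B cell marker are not reported here.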

Additional observations from a re-analysis of the deposited data

How the results depend on the processing

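The main limit is 3 libraries a group with a wide spread, 1 of them (liver NK RARa403 library 1) far from its group. The number of septin genes past the threshold in RARa403 liver ILC1s against NK cells, 1 in the main analysis, was 2 with no filter on low counts and 0 with only the groups compared, and 1 to 2 when each library was left out. In RARa403 spleen ILC1s against NK cells the same settings gave 2, 0 and 1 to 2. Wherever a septin gene was counted, Sept8 was among them, and its call follows from how the family was chosen and is no sign of stability. With only the groups compared its adjusted p was 0.634 in liver and 0.623 in spleen (edgeR), and 0 of all genes were called in each. The second gene was Sept11. With no filter its log2 fold change was -1.21 (adjusted p = 0.0231) in liver and -1.12 (adjusted p = 0.0451) in spleen. Without liver NK RARa403 library 3 both counts were 2. The cause was not tested. All genes called in these 2 comparisons were 59 and 35 in the main analysis, 794 and 811 with no filter, 22 and 15 with a log2 fold threshold of 1, 162 and 49 from replicates 2 and 3, 217 and 74 by limma-voom, 543 and 544 by DESeq2, and 18 to 254 and 10 to 321 with a library left out. In the other 7 comparisons the count of septin genes was 0 under every alternative run, leaving out each library included (0 to 0).

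With the replicate block the counts of septin genes were 1 and 1 in the ILC1 against NK comparisons, with 34 and 12 genes called in all, and 0 in the others. With the block within genotype they were again 1 and 1, with 16 and 3 genes. Correlations of same-numbered libraries ran from -0.033 to 0.245, under the 0.1 set for pairing in at least 1 pair of each comparison. Every same-numbered pair had a higher correlation than the other pairings in RARa403 liver ILC1s against NK cells and in both spleen against liver comparisons. With the digits that the description codes share, this is a hint that numbers mark a shared source, which the labels do not state.

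The mean share of septin TPM over 18 libraries was 37.28% for the Septin2 group, and 36.83 to 38.56% with a library left out. It was 35.83% (33.56 to 36.33%) for the Septin6 group, 19.32% (18.97 to 20.17%) for Sept7 and 7.57% (7.46 to 7.72%) for the Septin3 group. Raw counts with no length gave 21.02% for the Septin2 group and 28.81% for Sept7, and the longest transcript as length gave 24.37% for Sept7 and 5.83% for the Septin3 group.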
